A study of Rattus norvegicus with 23 samples.

Results

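Interferon-stimulated genes, the factors that switch them on, and the genes that cut and transport peptides for presentation on MHC class I were followed in rat kidney cells kept at pH 7.4 or exposed to pH 6.0. The set holds 47 genes, listed by name, out of 30452 genes in the count table. The names were listed when results of the pH comparisons in these same samples were already known. The counts of genes that rose or fell therefore describe the list and are no independent evidence about it. Of the 47 genes, 43 had enough reads to be tested, among 14777 tested genes in all. Irf9, Oas2, Oas3 and Isg15 did not pass the filter on low counts.

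Cells that sense foreign nucleic acid or receive interferon start a shared programme. Interferon binds its receptor, STAT proteins are phosphorylated, and STAT2 joins IRF9 in a complex that binds the interferon-stimulated response element (ISRE) in promoters. IRF1 and IRF7 bind related elements, and the gamma-activated site (GAS) is the element bound by STAT dimers. The induced genes code for sensors of viral RNA, enzymes that block viral replication, the ISG15 protein-tagging system, and the immunoproteasome with the peptide transporter TAP. Epithelial cells and fibroblasts both carry this programme and express part of it without infection.

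NRK-52E cells are an epithelial line and NRK-49F cells a fibroblast line, both from normal rat kidney. Neither line was infected or given interferon. Each line was grown alone and deprived of serum for 24 h. It was then held for 48 h in medium of pH 7.4 as the control or of pH 6.0, set with HCl. NRK-52E cells gave n = 6 samples at each pH, and NRK-49F cells n = 6 at pH 7.4 and n = 5 at pH 6.0. The labels further divide the samples into sample groups 1 and 3 (NRK-52E) or 4 and 6 (NRK-49F), each with 3 samples at each pH except group 4 with a pair at pH 6.0. They give neither what a sample group was nor whether replicates came from separate cultures, so p-values measure only the spread between these samples. Each line is a single established line, which limits what it can represent of kidney epithelium or kidney fibroblasts.

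The RNA was selected for poly(A) and read from both ends, and total counts per sample lay between 16412564 and 34250535. Levels are given as FPM, fragments per 1000000 of the library size after scaling by TMM, and a log2 fold change is the change at pH 6.0 against pH 7.4 with its standard error (SE). FPM are not divided by gene length, so levels are compared between samples and not between genes. A level of 3 counts, the smallest taken as detected, equalled 0.0839 to 0.170 FPM in NRK-52E samples and 0.0999 to 0.203 FPM in NRK-49F samples, a limit that covers counting error only. The epithelial label was weakly backed by its markers, since 6 of 8 epithelial markers in the table (Cldn3, Cldn4, Cldn7, Epcam, Esrp1 and Krt18) had at most 3 counts in every NRK-52E sample, and Cdh1 was at 0.160 ± 0.0977 FPM at pH 7.4 (SD, n = 6). Krt18 was near 0 in NRK-49F cells as well, with at most 16 counts, so it is left aside here and the other 5 carry the statement. The remaining marker, Krt8, went the other way with 499 FPM at pH 7.4, though it was lower than in NRK-49F cells (log2 difference -0.75). In bulk RNA a lower level per cell and fewer expressing cells cannot be told apart.

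The promoters show what many of these genes have in common apart from their names. RefSeq promoters on GRCr8, running from 250 bases before to 50 after the start of each gene, were matched by symbol for 35 of the 47 genes. The core of an ISRE, GAAA followed by any 2 letters and GAAA again, was searched on both strands and stood in 21 of the 35 promoters (60%), against 3.92% of all 33469 promoters. The GAS letters, TTC and GAA with any 3 letters between them, stood in 8 of them (22.9%), against 8.87% of all promoters. A match is a run of letters, not a shown binding site. Examples from genes that rose and genes that fell, picked after their values were seen and not by rank of change, are shown with 20 bases on either side of the match where the promoter reaches that far, 5′ to 3′ on the strand of the gene, with the ISRE core in capitals:
Tap1: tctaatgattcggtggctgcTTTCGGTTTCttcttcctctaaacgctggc
Tap2: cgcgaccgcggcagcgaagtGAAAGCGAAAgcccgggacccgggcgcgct
Psmb10: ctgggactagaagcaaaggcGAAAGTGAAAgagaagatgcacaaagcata
Bst2: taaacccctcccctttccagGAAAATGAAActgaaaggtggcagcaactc
Isg20: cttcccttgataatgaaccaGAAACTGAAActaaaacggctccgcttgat
Irf7: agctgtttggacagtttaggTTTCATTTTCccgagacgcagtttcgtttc
Eif2ak2: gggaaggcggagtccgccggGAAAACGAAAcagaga
Ifit3: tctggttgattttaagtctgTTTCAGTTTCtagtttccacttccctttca
Oas1a: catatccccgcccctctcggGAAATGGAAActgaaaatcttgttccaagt
Parp14: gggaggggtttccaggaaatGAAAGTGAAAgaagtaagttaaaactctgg
Ifi27: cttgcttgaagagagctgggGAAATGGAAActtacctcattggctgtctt

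On GRCr8 these windows lie at chr20:4668635-4668684 (Tap1, minus strand), chr20:4652308-4652357 (Tap2, minus), chr19:50743336-50743385 (Psmb10, minus), chr16:18255069-18255118 (Bst2, minus), chr1:142239947-142239996 (Isg20, plus) and chr1:205800063-205800112 (Irf7, minus). The others lie at chr6:21941118-21941153 (Eif2ak2, plus), chr1:241527262-241527311 (Ifit3, plus), chr12:41330405-41330454 (Oas1a, plus), chr11:78408038-78408087 (Parp14, plus) and chr6:128355208-128355257 (Ifi27, plus). In Tap1, Irf7 and Ifit3 the core is read on the opposite strand, so it appears as TTTC, 2 letters and TTTC. In Bst2 a GAS match (TTCCAGGAA) runs into the ISRE core and shares its first letters. The ISRE core was found in genes of both directions of change. In NRK-52E cells it stood in 10 of 14 promoters of genes that rose, in 6 of 13 of genes that fell, and in 4 of 6 of tested genes that passed the threshold in neither direction. Among the roles, it stood in 1 of 4 promoters of transcription factors, 2 of 2 of sensors, 4 of 5 of antigen-processing genes, 7 of 11 of antiviral effectors, 2 of 7 of ISG15 and ubiquitin or ADP-ribose transfer genes and 5 of 6 of other interferon-induced genes. With C required as the next letter, the match was left in 0 of the 5 antigen-processing promoters, 5 of the 11 of effectors, 4 of the 6 of other interferon-induced genes, 1 of the 7 of the ISG15 role, 1 of the 4 of transcription factors and 2 of the 2 of sensors.

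At pH 6.0 genes of the set rose and fell in NRK-52E cells, where the share that fell was near that of all tested genes. Those that changed in NRK-49F cells rose. In NRK-52E cells 34 of 43 genes changed (79.1%, against 61.2% of all tested genes), of which 16 rose (37.2%, against 24.7% of all) and 18 fell (41.9%, against 36.6%). The falls included Zbp1, Mx1 and Oasl, with at most 9, 3 and 3 counts in any NRK-52E sample. They passed the count filter through their NRK-49F samples, so their calls say little about NRK-52E cells. A gene was called when its p in the quasi-likelihood test of edgeR, Benjamini-Hochberg adjusted over all tested genes, was under 0.05; this is the threshold used throughout. In NRK-49F cells 15 changed (34.9%, against 28.9% of all), since 15 rose (against 14.5%) and 0 fell (against 14.4%), while 1 gene was lower at an unadjusted p under 0.05 and DESeq2 called the same number lower, Cmpk2 in that case. The median log2 fold change over the 43 genes was -0.05 in NRK-52E cells (-0.12 over all tested genes) and 0.32 in NRK-49F cells (0.0009 over all tested genes). Samples of both pH values did not overlap for 11 higher and 12 lower genes in NRK-52E cells (backgrounds 15.4% and 23.2% of all tested genes), and for 11 higher and 0 lower genes in NRK-49F cells (10.4% and 10.2%).

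**Figure D1:**
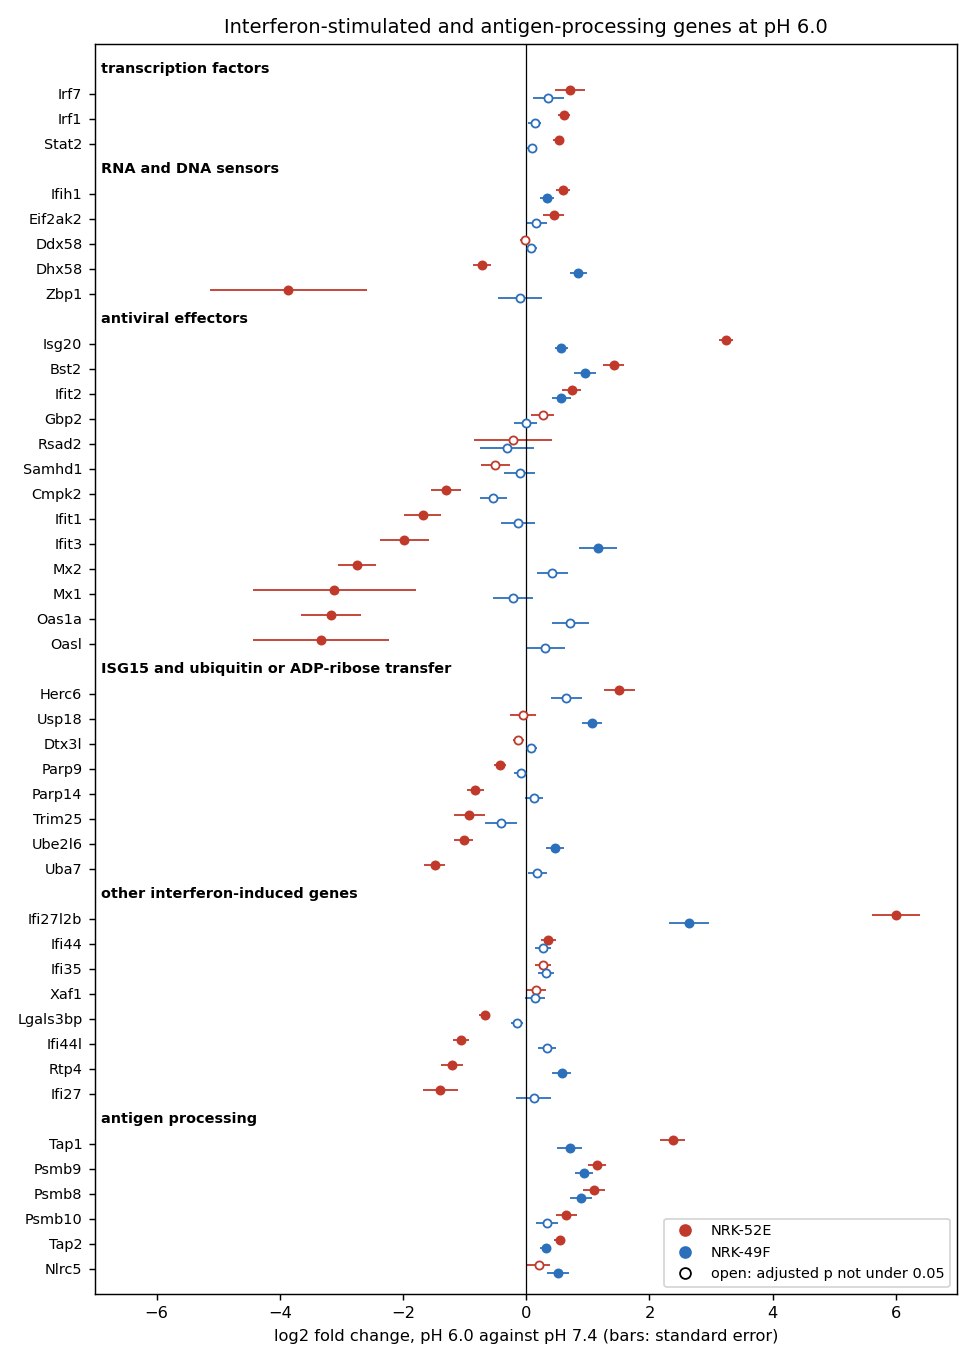
Log2 fold change at pH 6.0 against pH 7.4 for the 43 tested genes, grouped by role, in NRK-52E cells (red) and NRK-49F cells (blue). Bars are standard errors and open points have an adjusted p not under 0.05. The antigen-processing genes lie to the right of 0 in both lines, whereas most antiviral effectors lie to the left in NRK-52E cells, with Ifi27l2b at 6.00 as the point farthest right.

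The genes of both lines can be read side by side, since the lines share no samples. In both lines 9 genes rose (20.9%, against 6.94% of all tested genes), namely Ifih1, Ifit2, Bst2, Isg20, Ifi27l2b, Psmb8, Psmb9, Tap1 and Tap2. Another 4 genes fell in NRK-52E cells and rose in NRK-49F cells (9.3%, against 2.94%), namely Dhx58, Ifit3, Ube2l6 and Rtp4. In 0 cases did a gene fall in both lines (background 9.39%), or rise in NRK-52E cells and fall in NRK-49F cells (1.25%).

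Most antigen-processing genes rose in both lines. Tap1 and Tap2 together form the transporter that carries peptides into the endoplasmic reticulum, Psmb8, Psmb9 and Psmb10 are the catalytic subunits of the immunoproteasome, and Nlrc5 is the transactivator of MHC class I genes. In each line 5 of the 6 genes rose (83.3%, against 24.7% of all tested genes in NRK-52E and 14.5% in NRK-49F cells) and 0 fell (against 36.6% and 14.4%), with Nlrc5 not passing in NRK-52E cells and Psmb10 not passing in NRK-49F cells.

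Tap1 in NRK-52E cells ranged from 14 to 18.4 FPM at pH 7.4 (median 15.7) and from 44.9 to 122 FPM at pH 6.0 (median 81.0), a log2 fold change of 2.38 ± 0.20 (SE). All samples at pH 6.0 lay above all at pH 7.4, and those of sample group 3 (122, 109 and 116 FPM) lay far above those of group 1 (53, 44.9 and 51.4 FPM). In NRK-49F cells Tap1 ranged from 61.3 to 74.9 FPM at pH 7.4 (median 67.6) and was at 117, 98.8, 115, 121 and 101 FPM at pH 6.0, a log2 fold change of 0.70 ± 0.20. At pH 6.0 the NRK-52E samples of group 1 thus lay below and those of group 3 above all NRK-49F samples at pH 7.4. Tap2 rose less. In NRK-52E cells it went from 54.7 ± 0.964 to 79.7 ± 13.4 FPM (SD, n = 6 each) and in NRK-49F cells from 108 ± 8.96 (n = 6) to 134 ± 11.3 FPM (n = 5), without overlap in either line.

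Psmb9 in NRK-52E cells ranged from 18.7 to 30.2 FPM at pH 7.4 (median 23.2) and from 40.3 to 66.5 FPM at pH 6.0 (median 50.1), a log2 fold change of 1.15 ± 0.14 (SE). In the fibroblasts it ranged from 96.8 to 155 FPM at pH 7.4 (median 106) and was at 238, 164, 228, 275 and 185 FPM at pH 6.0, a log2 fold change of 0.94 ± 0.14. Neither line had a sample of Psmb9 at pH 6.0 within the range of pH 7.4. Psmb8 rose by much the same amount, with log2 fold changes of 1.10 ± 0.18 and 0.89 ± 0.18, but in NRK-49F cells 1 sample at pH 7.4 (210.0 FPM, replicate A052) reached into the range of pH 6.0, whose lowest samples were at 187 and 204 FPM. In NRK-52E cells Psmb10 rose from 29.5 ± 8.75 to 46.3 ± 5.08 FPM, with overlap between the pH values. Its log2 fold change of 0.34 ± 0.18 in NRK-49F cells did not pass the threshold. Nlrc5 went from 11.1 ± 1.49 to 15.9 ± 3.29 FPM in NRK-49F cells (log2 fold change 0.52 ± 0.18) and had a log2 fold change of 0.20 ± 0.19, not past the threshold, in NRK-52E cells. The difference between the lines was past the threshold for Tap1 alone among these 6 genes.

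**Figure D2:**
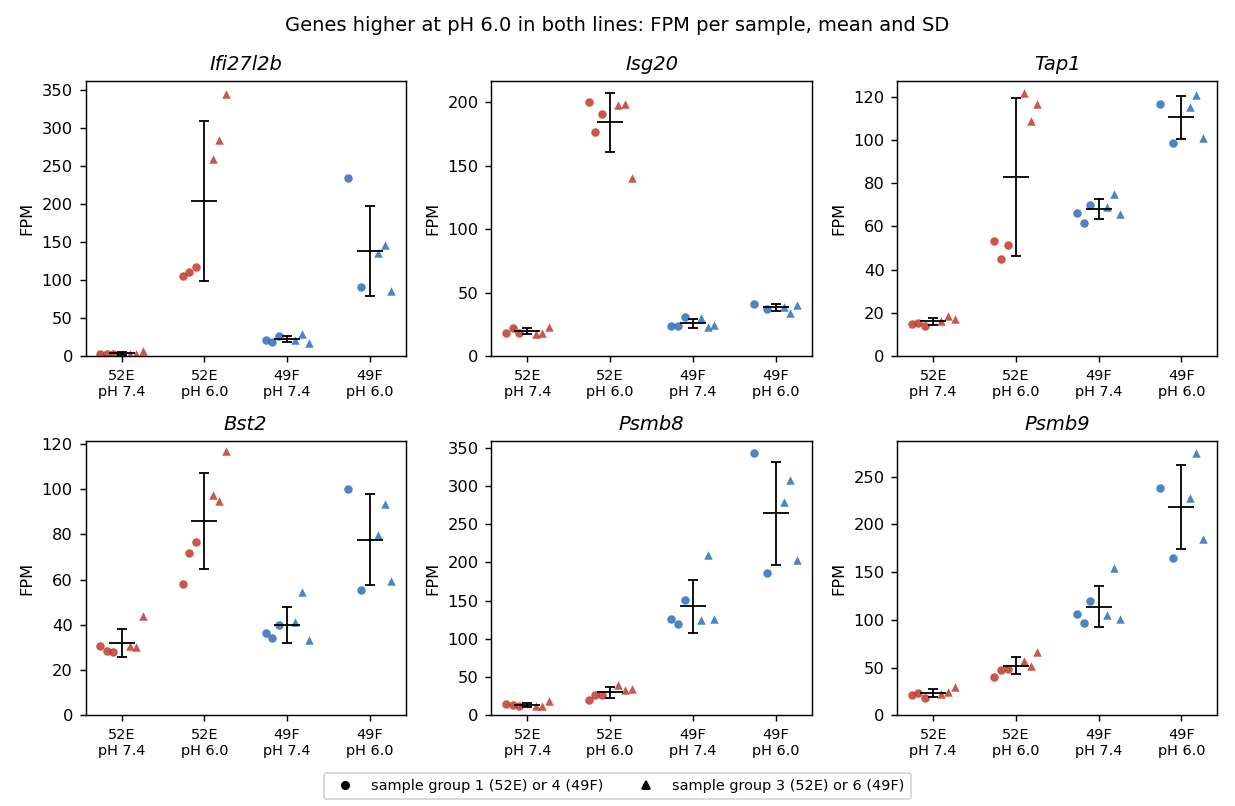
FPM in every sample of 6 genes that rose at pH 6.0 in both lines, with mean and SD (bars), by line, pH and sample group (circles and triangles). In NRK-52E cells at pH 6.0 the triangles of sample group 3 lie above the circles of group 1 without overlap for Ifi27l2b, Tap1, Bst2, Psmb8 and Psmb9. Isg20 is the exception, as its lowest sample at pH 6.0 (141 FPM) is of group 3. The pH change itself differed between the groups past the threshold for Tap1 alone among the 6 genes.

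Tap2, Psmb8, Tap1 and Psmb9 lie next to each other in the RefSeq gene order on chromosome 20, with 0 protein-coding genes between neighbours, and all of them rose in both lines. Tap1 and Psmb9 are read in opposite directions from starts 457 bases apart, and the ISRE core shown for Tap1 lies between these starts, 111 bases before that of Tap1. Close position did not always go with a shared direction in NRK-52E cells. Ifit2 rose (log2 fold change 0.74 ± 0.16) next to Ifit3, which fell (-1.98 ± 0.40), and Ifi44 rose (0.36 ± 0.12) next to Ifi44l, which fell (-1.06 ± 0.13). Ifi27l2b rose and its neighbour Ifi27 fell.

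The transcription factors rose moderately in NRK-52E cells. Stat2, Irf1 and Irf7 were tested and all 3 rose there, where 24.7% of all tested genes rose. In NRK-49F cells, where 28.9% of all tested genes changed in either direction, 0 of the 3 passed the threshold. Stat2 ranged from 48.4 to 52.9 FPM at pH 7.4 (median 50.1) and from 57.0 to 86.9 FPM at pH 6.0 (median 75.0) in NRK-52E cells, a log2 fold change of 0.52 ± 0.09 (SE) without overlap. Irf1, the factor best known for interferon gamma responses, ranged from 21.9 to 27.7 FPM (median 25.1) and from 31.1 to 45.0 FPM (median 38), a log2 fold change of 0.62 ± 0.10. Both rises exceeded those of NRK-49F cells, with log2 differences of 0.43 ± 0.13 for Stat2 and 0.48 ± 0.14 for Irf1. In NRK-49F cells Stat2 stayed between 61.4 and 73.3 FPM and Irf1 between 84.5 and 117 FPM over both pH values.

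Irf7, the factor that amplifies type I interferon, needs its sample groups to be described. In NRK-52E cells at pH 7.4 it was at 19.4, 23.1 and 18.1 FPM in group 1 and at 21.8, 20.6 and 27.2 FPM in group 3. At pH 6.0 it was at 17.9, 18.6 and 19.2 FPM in group 1 and at 49.5, 51.2 and 57.1 FPM in group 3. The pooled log2 fold change of 0.72 ± 0.24 (SE) thus joined -0.11 ± 0.16 within group 1 and 1.18 ± 0.16 within group 3, and without replicate A038 it no longer passed (0.53, Benjamini-Hochberg adjusted p = 0.0568 in the same test of edgeR). Irf9, the DNA-binding partner of Stat2, was not tested, with means of 0.260 ± 0.177, 0.0901 ± 0.0715, 0.184 ± 0.135 and 0.289 ± 0.350 FPM (SD) in NRK-52E cells at pH 7.4 and 6.0 and NRK-49F cells at pH 7.4 and 6.0.

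The sensors of RNA and DNA split. Ddx58, Ifih1 and Dhx58 code for the RIG-I-like RNA sensors, Eif2ak2 for the RNA-activated kinase PKR that halts translation, and Zbp1 for a sensor of Z-form nucleic acid. Ifih1 ranged from 14.8 to 21 FPM at pH 7.4 and from 23.1 to 35.8 FPM at pH 6.0 in NRK-52E cells (medians 18.8 and 26.6), a log2 fold change of 0.59 ± 0.11 (SE). Its rise in NRK-49F cells was smaller (0.34 ± 0.12) and lost its call when any of 6 libraries of that line was left out (A039, A051, A052, A053, A054 or A056), with log2 fold changes between 0.27 and 0.34. Ddx58 changed past the threshold in neither line, with log2 fold changes of -0.02 ± 0.08 and 0.08 ± 0.09.

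Dhx58, the regulator of the other two RNA sensors, went in opposite directions. In NRK-52E cells it ranged from 11.5 to 15.7 FPM at pH 7.4 (median 12.4) and from 6.46 to 10.7 FPM at pH 6.0 (median 7.23). In NRK-49F cells it ranged from 15.2 to 22.9 FPM at pH 7.4 (median 19.7) and was at 32.3, 28.2, 39.8, 41 and 30.2 FPM at pH 6.0. The pH values did not overlap in either line, and the log2 fold changes were -0.72 ± 0.14 and 0.84 ± 0.14 (SE). Eif2ak2 rose in NRK-52E cells (0.45 ± 0.17), at pH 6.0 with 58.0, 55.1 and 44.2 FPM in sample group 3 but 28.0, 22.2 and 27.9 FPM in group 1, against 24.6 to 32.3 FPM at pH 7.4. Zbp1 was at or near 0 in NRK-52E cells, with 9 counts in replicate A021 as its largest value, so no fold is given, and its call was lost without that replicate. It lay between 1.94 and 3.99 FPM in NRK-49F cells.

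Among the 15 antiviral effectors, 13 were tested, of which 3 rose (23.1%, near the 24.7% of all tested genes) and 7 fell (53.8%, against 36.6%) in NRK-52E cells. The falls included Mx1 and Oasl, which were hardly expressed in that line and were tested through their NRK-49F counts. The fibroblast line had 4 that rose (30.8%, against 14.5%) and 0 that fell (against 14.4%). Isg20, an exonuclease that degrades viral RNA, had the largest rise of this role in NRK-52E cells. It ranged from 17.2 to 23 FPM at pH 7.4 (median 18.3) and from 141 to 200.4 FPM at pH 6.0 (median 194), a log2 fold change of 3.24 ± 0.11 (SE). In NRK-49F cells it ranged from 23 to 30.8 FPM at pH 7.4 (median 23.9) and was at 41.1, 37.1, 38.8, 34.1 and 40.1 FPM at pH 6.0, a log2 fold change of 0.57 ± 0.11. Its level at pH 7.4 was lower in NRK-52E than in NRK-49F cells (log2 difference -0.41 ± 0.10). The samples of both pH values did not overlap in either line, and the rise was larger in NRK-52E cells by 2.68 ± 0.15 on the log2 scale.

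Bst2, the membrane protein tetherin that holds budding virions at the cell surface, rose in both lines. It ranged from 27.8 to 44.1 FPM at pH 7.4 (median 30.4) and from 57.9 to 117 FPM at pH 6.0 (median 85.6) in NRK-52E cells. In NRK-49F samples Bst2 ranged from 33.2 to 54.4 FPM at pH 7.4 (median 38.2) and was at 100.1, 55.4, 79.9, 93.4 and 59.6 FPM at pH 6.0. The log2 fold changes were 1.42 ± 0.17 and 0.96 ± 0.18 (SE), and the difference between them, 0.46 ± 0.25, was not past the threshold. Ifit2, whose protein binds viral RNA and curbs translation, rose by 0.74 ± 0.16 and 0.57 ± 0.16 on the log2 scale.

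Mx2, a dynamin-like GTPase, fell in NRK-52E cells at pH 6.0 more than any other gene of the set with a mean of at least 1 FPM there. It ranged from 3.66 to 8.02 FPM at pH 7.4 (median 5.70) and from 0.425 to 1.54 FPM at pH 6.0 (median 0.722), a log2 fold change of -2.75 ± 0.31 (SE) without overlap. In NRK-49F cells it ranged from 16.8 to 30.9 FPM at pH 7.4 (median 22) and was at 16.1, 23.6, 44.7, 37.8 and 33 FPM at pH 6.0, where the 3 samples of group 6 were the high ones and the log2 fold change of 0.42 ± 0.25 did not pass the threshold. Ifit1, which binds viral RNA lacking cap methylation, also fell in NRK-52E cells. Its mean was 2.11 ± 0.819 FPM at pH 7.4 and 0.657 ± 0.380 FPM at pH 6.0 (SD, n = 6 each). Cmpk2, a nucleotide kinase of mitochondria, fell there from 3.87 ± 1.04 to 1.58 ± 0.795 FPM.

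Ifit3, the partner that stabilises Ifit1, was low in both lines. Its counts in single NRK-52E samples lay between 6 and 27 at pH 7.4 and between 1 and 10 at pH 6.0, and the means were 0.727 ± 0.268 and 0.172 ± 0.152 FPM (SD, n = 6 each), with overlap. In NRK-49F cells it ranged from 0.808 to 1.73 FPM at pH 7.4 and was at 2.55, 2.07, 2.78, 3.57 and 2.39 FPM at pH 6.0. Its log2 fold change was -1.98 ± 0.40 (SE) in the epithelial and 1.17 ± 0.31 in the fibroblast line, so that the lines moved apart. Oas1a, an oligoadenylate synthetase that activates RNase L, had 96 counts over the NRK-52E samples at pH 7.4 and 9 at pH 6.0, a level 9.91-fold lower per scaled library (exact binomial 95% interval 5.01 to 22.3, counting error only).

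Several effectors were hardly expressed in NRK-52E cells at either pH. Mx1 and Oasl had at most 3 counts in each sample at pH 7.4 and 0 at pH 6.0. Their quasi-likelihood test passed the threshold, but with both groups at or under the floor of 3 counts a fold is not printed. In NRK-49F cells Mx1 lay at 3.65 ± 0.632 and 3.12 ± 1.40 FPM (SD, n = 6 and 5) and Oasl at 1.79 ± 0.342 and 2.19 ± 0.902 FPM at pH 7.4 and 6.0. Oas2 and Oas3 were not tested. Oas2 reached at most 11 counts at pH 7.4 and 37 at pH 6.0 in NRK-49F samples, and Oas3 at most 2 counts in any sample. Rsad2 (viperin), Samhd1 (a hydrolase of deoxynucleotides) and Gbp2 (a guanylate-binding GTPase) passed the threshold in neither line.

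The ISG15 system tags proteins with a ubiquitin-like modifier. Isg15 itself was listed at 0 in all 23 samples, and since Krt18, a widely used marker, was also near 0 in both lines, nothing is read from that. Its activating enzyme Uba7 ranged from 4.51 to 7.70 FPM at pH 7.4 (median 6.71) and from 1.31 to 3.35 FPM at pH 6.0 (median 2.21) in NRK-52E cells, a log2 fold change of -1.49 ± 0.18 (SE). In NRK-49F cells Uba7 ranged from 36.5 to 44.1 FPM at pH 7.4 (median 40.3) and was at 41.6, 44.9, 44.6, 50.1 and 44.8 FPM at pH 6.0 (log2 fold change 0.18 ± 0.15, not past the threshold). The conjugating enzyme Ube2l6 fell in the epithelial line, with means of 13 ± 2.97 FPM at pH 7.4 and 6.4 ± 1.15 FPM at pH 6.0 (SD, n = 6 each), but rose in NRK-49F cells from 22.1 ± 3.05 to 30.5 ± 5.97 FPM (n = 6 and 5).

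The last enzyme of the cascade and the one that undoes it behaved differently again. Herc6, the ISG15 ligase of rodents, ranged from 0.927 to 2.21 FPM at pH 7.4 (median 1.79) and from 4.24 to 6.51 FPM at pH 6.0 (median 4.57) in NRK-52E cells, a log2 fold change of 1.51 ± 0.25 (SE) without overlap. Usp18, which removes ISG15 and dampens the interferon receptor, rose in NRK-49F cells, where it ranged from 54.2 to 67.1 FPM at pH 7.4 (median 58.9) and was at 108, 115, 142, 138 and 121 FPM at pH 6.0. Its log2 fold change was 1.07 ± 0.17 in NRK-49F cells and -0.05 ± 0.21 in NRK-52E cells, where the level was between 1.08 and 3.47 FPM over both pH values. Trim25, the ubiquitin ligase of RIG-I, and the ADP-ribosyl transferases Parp9 and Parp14 had log2 fold changes of -0.93 ± 0.25, -0.42 ± 0.10 and -0.82 ± 0.14 in NRK-52E cells, all falls, whereas Dtx3l, the partner of Parp9, changed past the threshold in neither line.

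Among the other interferon-induced genes, Ifi27l2b and Ifi27 are neighbouring members of a family of small hydrophobic proteins. Because reads that map to several places were counted, the values of these paralogs can share reads. Ifi27l2b in NRK-52E cells ranged from 2.09 to 6.57 FPM at pH 7.4 (median 2.60) and from 104.8 to 345 FPM at pH 6.0 (median 188). In NRK-49F samples Ifi27l2b ranged from 17 to 28.7 FPM at pH 7.4 (median 20.9) and was at 234, 91.0, 136, 146 and 85.1 FPM at pH 6.0, a log2 fold change of 2.64 ± 0.33 (SE) against 6.00 ± 0.38 in NRK-52E cells. In both lines every sample at pH 6.0 lay far above every sample at pH 7.4.

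Ifi27 went the other way in NRK-52E cells. It ranged from 47.9 to 73.4 FPM at pH 7.4 (median 59.8) and from 9.17 to 40.7 FPM at pH 6.0 (median 19.8), a log2 fold change of -1.39 ± 0.28 (SE). The samples of group 3 at pH 6.0 (9.17, 10.8 and 12.8 FPM) were lower than those of group 1 (26.9, 40.7 and 37.1 FPM). In NRK-49F cells Ifi27 was at 344 ± 65.8 and 374 ± 84.4 FPM (SD, n = 6 and 5), with a log2 fold change of 0.12 ± 0.28. In NRK-52E cells the sum of both genes was 63.6 ± 12.0 FPM at pH 7.4 and 226 ± 93.2 FPM at pH 6.0. The sum was therefore higher at pH 6.0, while its larger part passed from Ifi27 to Ifi27l2b. In NRK-49F cells the sum was 366 ± 70.0 and 512 ± 130.1 FPM.

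Of the remaining genes of this role, Rtp4, a chaperone of membrane receptors, fell in the epithelial line, with means of 3.36 ± 0.808 FPM at pH 7.4 and 1.44 ± 0.312 FPM at pH 6.0 (SD, n = 6 each), and rose in NRK-49F cells from 23.2 ± 2.20 to 34.6 ± 8.0 FPM (n = 6 and 5), in both without overlap. Ifi44l and Lgals3bp, the latter a secreted galectin-binding glycoprotein, also fell in NRK-52E cells, with log2 fold changes of -1.06 ± 0.13 and -0.68 ± 0.09 (SE). Ifi44l is 1 of 3 genes of the set that were higher in NRK-52E than in NRK-49F cells at pH 7.4, with 18.1 ± 0.777 against 4.30 ± 0.419 FPM. Ifi35 and Xaf1, the latter a promoter of apoptosis, passed the threshold in neither line.

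The change at pH 6.0 differed between the lines for 20 of the 43 genes (46.5%, against 41.4% of all tested genes). It was larger in NRK-52E cells for 5 genes (11.6%, against 16.8% of all tested genes), namely Ifi27l2b, Isg20, Tap1, Irf1 and Stat2. It was smaller, meaning a stronger fall or a weaker rise, for 15 (34.9%, against 24.7%). These included Zbp1 and Oasl, which were at or near 0 in NRK-52E cells at both pH values. Among those with a mean of at least 1 FPM in NRK-52E cells, the most negative differences were those of Mx2 (-3.17 ± 0.40, SE), Rtp4 (-1.78 ± 0.24) and Uba7 (-1.67 ± 0.23).

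**Figure D3:**
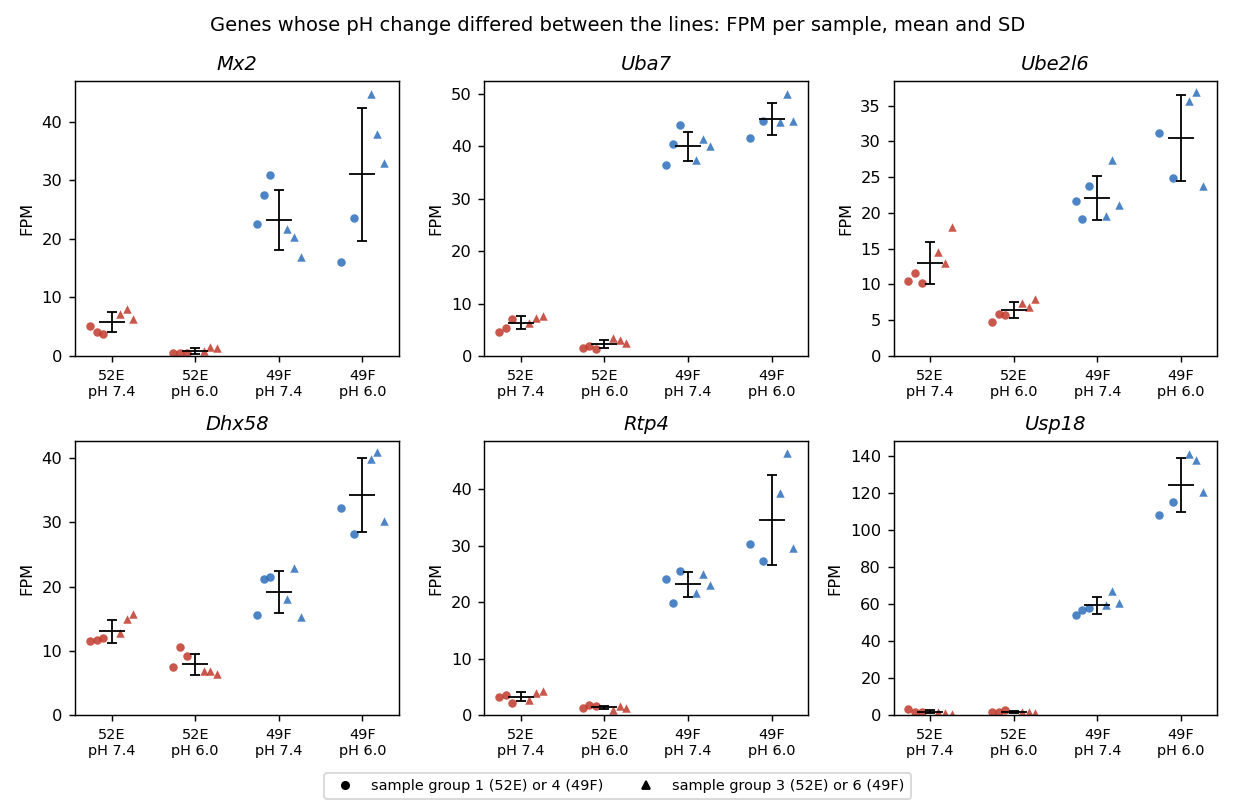
FPM in every sample of 6 genes whose pH change was smaller in NRK-52E than in NRK-49F cells, with mean and SD (bars), by line, pH and sample group (circles and triangles). In NRK-52E cells Mx2, Uba7, Ube2l6, Dhx58 and Rtp4 are lower at pH 6.0 without overlap, and in NRK-49F cells Dhx58, Rtp4 and Usp18 are higher without overlap.

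Before any acid exposure most of the genes were expressed less in the epithelial line. At pH 7.4, 37 of the 43 genes differed between the lines (86%, against 68.8% of all tested genes). Of these, 34 were lower in NRK-52E than in NRK-49F cells (79.1%, against 33.9% of all) and 3 were higher (6.98%, against 35% of all), namely Ddx58, Samhd1 and Ifi44l. The lower ones included Zbp1, Mx1, Oasl and Rsad2, with at most 9, 3, 3 and 7 counts in any NRK-52E sample. They passed the count filter through NRK-49F samples, which set their direction in this comparison beforehand. The median log2 difference was -1.39, against 0.02 over all tested genes. Psmb8 was at 14.1 ± 2.58 FPM in NRK-52E and 143 ± 34.6 FPM in NRK-49F cells (SD, n = 6 each), Lgals3bp at 92.7 ± 10.52 and 818 ± 68.1 FPM, and Usp18 at 1.98 ± 0.831 and 59.5 ± 4.34 FPM. At pH 6.0, 33 genes differed (76.7%, against 75.5% of all), with 30 lower (69.8%, against 38.9%) and 3 higher (against 36.6%) in NRK-52E cells. These comparisons use the same samples as the pH comparisons.

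Within NRK-52E cells, the change at pH 6.0 differed between the sample groups for 9 of the 43 genes (20.9%, against 10.6% of all tested genes). It was higher in group 3 for 6 genes (14%, against 3.78% of all), namely Irf7 (by 1.30 ± 0.22 on the log2 scale, SE), Tap1 (0.99 ± 0.14), Eif2ak2 (0.98 ± 0.17), Gbp2 (0.91 ± 0.16), Tap2 (0.46 ± 0.10) and Stat2 (0.39 ± 0.12). It was lower in group 3 for 3 genes (against 6.87%), namely Ifi27 (-1.49 ± 0.32), Parp9 (-0.58 ± 0.09) and Lgals3bp (-0.56 ± 0.14). Gbp2 was the clearest case of opposite signs, with pH 7.4 between 18.9 and 21.9 FPM and pH 6.0 at 16.6, 16.4 and 14.8 FPM in group 1 but 36.8, 29.7 and 30.1 FPM in group 3. It fell within group 1 (log2 fold change -0.28 ± 0.11) and rose within group 3 (0.63 ± 0.11).

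**Figure D4:**
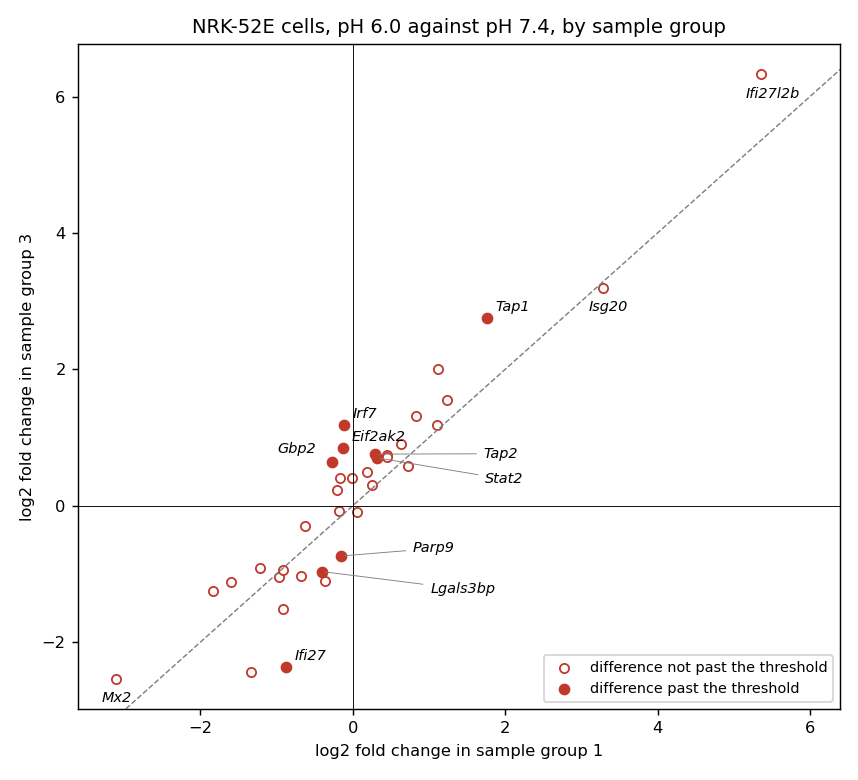
Log2 fold change at pH 6.0 against pH 7.4 within sample group 1 (x axis) and within group 3 (y axis) of NRK-52E cells, for the 37 genes whose mean in that line was 1 FPM or more, with the line of equal change dashed. Filled points mark the 9 genes whose change differed between the groups, and Irf7, Eif2ak2 and Gbp2 lie left of 0 on the x axis but above 0 on the y axis.

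Within the groups of NRK-52E cells, 28 of the 43 genes changed in group 1 (65.1%, against 48.9% of all tested genes) and 32 in group 3 (74.4%, against 57.4%). Among NRK-49F samples, group 4 had 13 such genes (30.2%, against 23% of all), of which 10 rose (against 12%) and 3 fell (against 11%), and group 6 had 20 (46.5%, against 21.2%), of which 20 rose (against 10.3%) and 0 fell (against 10.9%). The lower genes of group 4 were Cmpk2, Parp9 and Lgals3bp, with log2 fold changes of -0.76, -0.29 and -0.31. Between groups 4 and 6 the change differed for 0 of the 43 genes and for 0 of all tested genes by edgeR's quasi-likelihood test. The change was nonetheless higher in group 6 for 36 of the 43 genes, with a median difference of 0.32 on the log2 scale (-0.0029 over all tested genes). The median change over the 43 genes was 0.07 in group 4 and 0.32 in group 6 (0 and -0.0025 over all tested genes). At an unadjusted p under 0.05, 7 of the 43 genes and 596 of all differed, and DESeq2 called 1 of the set (Mx2, 1.41) and 10 of all.

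Other parts of the pathway were read from lists written from general knowledge of it. Of 8 interferon genes in the table only Ifne was tested, which passed the threshold in neither line, and Ifna1, Ifng, Ifnl1 and Ifnl3 had 0 counts in every sample. Among 14 tested receptor and JAK-STAT genes, 2 rose and 4 fell in NRK-52E cells (14.3% and 28.6%, both below the 24.7% and 36.6% of all tested genes), with Socs1 (an inhibitor of the receptor kinases, 1.08 ± 0.17 on the log2 scale) and Socs3 (-1.19 ± 0.10) as the largest in each direction. In NRK-49F cells 1 rose, the receptor chain Ifnar2 (0.53 ± 0.09), and 1 fell, Ifngr1 (-0.41 ± 0.10), each 7.14% against 14.5% and 14.4% of all. Among 15 tested genes of nucleic acid sensing upstream of interferon, 4 rose and 8 fell in NRK-52E cells (26.7% and 53.3%), and 2 rose and 1 fell in NRK-49F cells (13.3% and 6.67%), so that the rises lay near those same shares of all genes. Irf5, a factor downstream of Toll-like receptors, fell from 3.41 ± 0.619 to 0.632 ± 0.255 FPM in the former and rose from 12.3 ± 0.991 to 18.4 ± 1.22 FPM in the latter.

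Another list held genes of MHC class I, peptide loading and the proteasome outside the set, 19 of them tested. In NRK-52E cells 9 of these rose and 3 fell (47.4% and 15.8%, against 24.7% and 36.6% of all tested genes). In NRK-49F cells 8 rose and 0 fell (42.1% and 0%, against 14.5% and 14.4%). The rises in NRK-52E cells included the proteasome subunit Psmb6 (log2 fold change 0.66) and the general chaperones Pdia3 (0.50) and Canx (0.27). Psmb5, Psmb7 and the chaperone Calr did not pass the threshold there, and Tapbp rose from a low level (0.197 to 1.15 FPM). B2m, the light chain of MHC class I, went from 1099 ± 110.3 to 1449 ± 145 FPM in NRK-52E cells and from 2125 ± 231 to 2598 ± 410.3 FPM in NRK-49F cells, and rose in both. The class I genes themselves were mixed in NRK-52E cells. All 3 falls were among them, RT1.N2 (log2 fold change -1.44), RT1.N3 (-0.66) and RT1.M3.1 (-0.55). RT1.CE1 (0.57) and RT1.T24.1 (0.50) rose, and RT1.CE16, RT1.S3 and RT1.T24.4 did not pass the threshold. Of 8 tested MHC class II genes, 0 rose in either line, 6 fell in NRK-52E cells (75%, against 36.6%) and 1, the class II transactivator Ciita, fell in NRK-49F cells (-0.75 ± 0.21; 12.5%, against 14.4%). Most were near 0 in NRK-52E cells, with means at pH 7.4 of at most 0.840 FPM except RT1.DMa and RT1.DMb. Signal of NRK-49F cells in the NRK-52E libraries at pH 7.4, estimated as described in the last paragraph, would give 61.7% of the level of Cd74 there, 24.3% of that of Ciita and more than the whole level of RT1.Ba, RT1.Da and RT1.Db1. With that signal subtracted, the latter 3 lost their calls and 3 falls were left, those of Cd74, Ciita and RT1.DMb. Of 38 tested further interferon-induced genes, 7 rose and 17 fell in NRK-52E cells (18.4% and 44.7%, against 24.7% and 36.6%), and 8 rose and 5 fell in NRK-49F cells (21.1% and 13.2%, against 14.5% and 14.4%), with medians of -0.32 and 0.03 on the log2 scale.

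Signal of the other line and of other cell types was measured beside these results. From 30 genes with at least 50 FPM in NRK-49F cells and near 0 in NRK-52E cells, NRK-49F signal was estimated at 1.36% in replicate A021, 0.494% in A022 and 0.344% in A033, at most 0.0383% in the other NRK-52E samples at pH 7.4, and at most 0.0197% at pH 6.0. The share of the pH 7.4 level that such signal would give was 11.4% for Usp18, 17.1% for Zbp1, 13.9% for Oasl and 37.6% for Mx1, and at most 3.83% for each of the other tested genes. Subtracting that signal was tried after the data had been seen, and the counts and named genes of the set kept their calls. Of 10 immune markers, 4 had at most 3 counts in every sample of each line. In NRK-52E cells the summed level of the 10 lay between 84.6 and 108 FPM at pH 7.4 and between 61.1 and 173 FPM at pH 6.0. The sample groups went in opposite directions without overlap. From pH 7.4 to 6.0 the sum went from 102 to 108 FPM up to 145 to 173 FPM in group 1. In group 3 it went from 84.6 to 104 FPM down to 61.1 to 81.6 FPM. The fibroblast samples lay between 122 and 138 FPM at pH 7.4 and between 294 and 342 FPM at pH 6.0, where Cd68 went from 29.9 ± 4.21 to 229 ± 13.8 FPM while Ptprc, the leukocyte marker, was at 0 in all samples at pH 6.0. Of 10 fibroblast markers, 8 were tested and 7 of them were lower at pH 6.0 in NRK-52E cells, or 5 with the NRK-49F signal subtracted. Their sum, carried by Col3a1 (6149 FPM at pH 7.4 and 2402 FPM at pH 6.0), ranged from 4977 to 8160 FPM at pH 7.4 and from 1842 to 3120 FPM at pH 6.0, while Dcn and Thy1 had at most 3 counts in every sample of that line. The sum of fibroblast markers in NRK-49F cells ranged from 10523 to 13448 FPM and from 7101 to 9607 FPM. The 8 epithelial markers summed to 441 to 651 FPM at pH 7.4 and 195 to 260.0 FPM at pH 6.0 in NRK-52E cells, and to 667 to 1207 FPM and 438 to 696 FPM in NRK-49F cells. The 6 endothelial markers summed to 10.3 to 21.5 FPM and 3.11 to 5.13 FPM in NRK-52E cells, and to 3.76 to 5.34 FPM and 5.70 to 8.84 FPM in NRK-49F cells, with Cdh5, Emcn and Kdr at no more than 3 counts in any sample. The marker sums of fibroblast, epithelial and endothelial cells were thus lower in all NRK-52E samples at pH 6.0 than in all at pH 7.4. Krt8 carried the epithelial sum there (499 FPM at pH 7.4 and 222 FPM at pH 6.0). Tek carried the endothelial sum (14.3 and 1.76 FPM), whereas Pecam1 (0.0561 and 0.581 FPM) and Vwf (0.637 and 1.65 FPM) rose past the threshold. The part of these marker shifts in the results was not tested.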

How the data were processed

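The authors mapped the read pairs with HISAT2 (2.1.0 per the submitters' processing notes) and assigned them to exons of the Ensembl 105 annotation with featureCounts, multi-mapping reads included. The genome build is rn7 per the study's methods and rn6 per the processing notes, and no strand setting is given in the sources used here. The deposited values are raw counts without normalization. Of the per-sample columns, 23 were used, and 13 that match no sample label were left out. The table pairs each gene with its Ensembl identifier and symbol, and genes were found by symbol.

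The 47 genes, their roles and the other lists were chosen with earlier results of these data known. All 23 samples entered a single model with 4 conditions (line by pH) in edgeR 4.0.16 (R 4.3.3), with filterByExpr (minimum count 10, minimum total 15), TMM scaling and the quasi-likelihood test. P-values were adjusted by Benjamini-Hochberg over all 14777 tested genes, with a threshold of 0.05. The sample groups were tested in a second fit with 8 cells of line, pH and sample group. The SE of a log2 fold change was taken from its size and the F statistic (size over root of F). FPM were computed from the TMM-scaled library size. Total counts ranged from 16412564 to 34250535.

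Values per sample are given for the transcription factors, in each line the 6 largest rises and 4 largest falls among genes called with a mean of at least 1 FPM there, the 3 largest differences between lines and between sample groups, and the largest rise and fall of each role. Other genes of the set were named for their role, and Eif2ak2, Gbp2, Ube2l6, Rtp4, Tap2 and Oas1a were given by sample or count after their values were seen. Alternatives were RLE and upper-quartile scaling, DESeq2 1.42.0 alone or together with edgeR, other filters, a test against a log2 fold change of 1, fits of each line alone, fits within a sample group or with it as a block, and leaving out each replicate. The steps were tested on simulated data. Promoters came from RefSeq (GRCr8). Figures were drawn with matplotlib 3.10.9.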

Additional observations from a re-analysis of the deposited data

Results flagged for a closer look

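In 4 of 82 groups of samples, 1 sample stood apart from the others of its group by Dixon's criterion, which chance alone meets in about 1 group in 20. In NRK-52E cells at pH 7.4, replicate A035 was high for Ifi27l2b, with 6.57 FPM against 2.09 to 3.08 FPM in the others, and for Bst2, with 44.1 FPM against 27.8 to 30.8 FPM. In NRK-52E cells at pH 6.0, replicate A037 was high for Herc6, with 6.51 FPM against 4.24 to 4.66 FPM. In NRK-49F cells at pH 7.4, replicate A052 was high for Psmb8, with 210.0 FPM against 119 to 150.4 FPM. Leaving out any of these replicates changed no call of these genes.

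The change at pH 6.0 differed between the lines, by the contrast of both changes in the quasi-likelihood test of edgeR, Benjamini-Hochberg adjusted. On the log2 scale it was higher in NRK-52E cells by 3.36 for Ifi27l2b, 2.68 for Isg20, 1.67 for Tap1, 0.48 for Irf1 and 0.43 for Stat2. The difference, NRK-52E minus NRK-49F, was -3.17 for Mx2, -3.14 for Ifit3, -1.67 for Uba7, -1.56 for Dhx58, -1.54 for Ifit1, -1.52 for Ifi27 and -1.11 for Usp18. It was -3.76 for Zbp1 and -3.64 for Oasl, fitted values that depend on the prior count because both genes had 0 counts in NRK-52E cells at pH 6.0.

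Within NRK-52E cells the change differed between sample groups 3 and 1 by 1.30 for Irf7, 0.99 for Tap1, 0.39 for Stat2 and -1.49 for Ifi27 on the log2 scale. Sample groups were not described in the labels, and what they share was not tested.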

How the results depend on the processing

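No paired analysis was possible because the replicate codes are not shared between the pH values. The 21 named genes, most of them named for the size of their change, were followed in the 29 pairs of gene and line called in the main fit. Irf9 gave no pair, and settings in which a gene was not tested gave no value. Under alternatives, 339 log2 fold changes of these pairs gave 312 with the direction and side of the threshold kept and 26 with the direction kept and the call lost. Another 1 was reversed, that of Irf7 in NRK-52E cells within sample group 1 (-0.11). When single replicates were left out, 8 of 667 lost their call, 6 of them Ifih1 in NRK-49F cells, and the others Irf7 without A038 and Zbp1 without A021 in NRK-52E cells. In NRK-52E cells 14 to 17 genes then rose and 16 to 19 fell, and in NRK-49F cells 12 to 17 rose and 0 to 1 fell (1 without A036). The change was larger in NRK-52E cells for 5 to 6 and smaller for 15 to 19 genes, and at pH 7.4 2 to 3 genes were higher and 34 to 35 lower there. Sample groups 1 and 3 differed for 8 to 10 genes and groups 4 and 6 for 0 to 1 (1 without A043).

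In NRK-49F cells 1 gene was lower, Cmpk2, with DESeq2, with each line fitted alone and with the sample group as a block, and 3 were lower within group 4. DESeq2 gave 1 gene that differed between groups 4 and 6. With at least 10 counts in every sample, fewer genes were tested, of which 11 fell in NRK-52E cells and 9 had a smaller change there. When a log2 fold change beyond 1 in size was required, 5 rose and 5 fell in NRK-52E cells, 1 rose in NRK-49F cells, 3 had a larger and 6 a smaller change in NRK-52E cells, 1 was higher and 22 lower there at pH 7.4, and 0 differed between groups 1 and 3. The ISRE core with C as the next letter stood in 37.1% of the promoters of the set, against 0.881% of all promoters. The cause of these shifts was not tested beyond the stricter settings themselves. Depth limits the statements on Zbp1, Mx1, Oasl, Oas1a and Ifit3, which had few counts in NRK-52E cells.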
